A study of Mus musculus with 2 samples.

Results

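Genes that remove acetyl groups from histones, the corepressor complexes that carry them and proteins that read the acetyl mark were described. The cells were adipose tissue macrophages (ATM) from wild-type (WT) and myeloid-specific Hif-1α knockout (KO) mice. The members were a list of 40 genes comprising 11 histone deacetylases (HDAC), 7 sirtuins, 11 subunits of the NuRD complex, 4 of the Sin3 complex, 3 of the NCoR complex, 2 of the CoREST complex and 2 bromodomain proteins of the BET family. Of the 40 genes, 39 had a row in the table of 20330 genes, and 35 of these were among the 10297 genes that reached 1 FPKM in WT, KO or both. FPKM, fragments per kilobase of transcript scaled to the mapped fragments of the library, is a level per length, so that levels of different genes may be set side by side. The level of Gatad2a, a NuRD subunit gene, was not analysed here.

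Acetylation of lysines in histone tails loosens chromatin and creates docking sites for bromodomains, and deacetylation reverses both. The HDAC of class I, IIa, IIb and IV depend on zinc, whereas sirtuins depend on NAD, which links their activity to metabolism. HDAC1 and HDAC2 work inside NuRD, Sin3 and CoREST, and HDAC3 works inside NCoR, and in macrophages these complexes hold inflammatory and metabolic genes in check until a signal releases them. SIRT1 and SIRT6 are also known for their contact with HIF-1α, SIRT1 as a deacetylase of it and SIRT6 as a repressor at glycolytic genes that it drives.

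The study sequenced poly(A) RNA of ATM sorted by F4/80 and CD11b from visceral fat of C57BL/6 mice given a high-fat diet for 12 weeks. The WT library came from hMRP8cre- mice and the KO library from hMRP8cre+ mice, and both, the controls included, are labelled Hif-1α fl/fl and ApoE-/-. The hMRP8 promoter drives Cre in myeloid progenitors, neutrophils and monocytes rather than in macrophages alone, and neither the age of the mice nor how many animals went into a library is stated in the labels. Each genotype had 1 library. The differences therefore could not be checked against replicates and carry no p-value, and a difference between the libraries cannot be told apart from a difference between animals or preparations. In bulk RNA, fewer cells of a type and less RNA per cell cannot be told apart either.

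FPKM summed to 585823 in WT and 568329 in KO. From the smallest recurring step of the low values, the WT library was estimated to hold some 5950000 fragments and the KO library 7530000, an estimate that rests on 7 and 10 genes at the step, with 5 and 1 genes below it. Fragment numbers derived from it cover counting error only. Hif1a stood at 30.4 FPKM in WT and 20.97 in KO, a difference of -0.52 on the log2(FPKM + 1) scale. All exons enter that value, and the floxed exon alone was not analysed here. Apoe was 94.3 FPKM in WT and 117 in KO, above 92.2% and 93.6% of the genes tested, while both libraries carry the ApoE-/- label. All exons enter this value as well, and whether the transcript was intact was not analysed here. No comparison here rests on the ApoE-/- label. Of 12 macrophage markers, 11 had a row, and their summed level was 16470 FPKM in WT and 15917 in KO, with Itgam, which encodes CD11b, at 128 in both and Adgre1, which encodes F4/80, at 299 and 239. None of the 11 passed 3-fold, while Mertk (38.0 and 88.1) was higher and Fcgr1 (49.3 and 21.9) lower past 2-fold. Of 6 T cell markers with a row, Cd3e, Cd3d, Cd3g, Cd8a and Lck were listed at 0 in both libraries and Cd4 was 5.35 FPKM in WT and 2.07 in KO. The 7 adipocyte markers summed to 553 FPKM in WT and 312 in KO, most of it Lpl (457 and 219) and Fabp4 (90.1 and 91.4), which macrophages also express, while Cidec was 5.83 in WT and listed at 0 in KO, Lep was listed at 0 in WT and was 1.595 in KO, and Adipoq, Plin1 and Retn were listed at 0 in both. B cell markers summed to 2.75 and 6.46 FPKM, with Cd79b listed at 0 in WT and at 5.52 in KO and Cd79a at 2.50 and 0.222. Dendritic cell markers summed to 2.18 and 9.54 FPKM, with Zbtb46 listed at 0 in WT and at 9.45 in KO, Xcr1 at 1.65 and 0.0588 and Ccr7 at 0.529 in WT and listed at 0 in KO. Several neutrophil and fibroblast markers were higher in KO. Of the neutrophil markers, 11 of 12 had a row and 7 passed the filter. Retnlg (0.385 and 2.46), Ngp (0 and 2.61) and Mpo (0 and 2.29) passed it through KO alone, which fixed their direction. S100a8 (73.3 and 182), S100a9 (63.4 and 301), Csf3r (15.5 and 24.1) and Cxcr2 (5.83 and 7.96) passed it in both libraries and were higher in KO. Past 3-fold were S100a9, Ngp and Mpo, 3 of the 7, beside 13.6% of all genes tested. The list summed to 158 FPKM in WT and 523 in KO, mostly S100a8 and S100a9, while Camp, Ltf, Elane and Mmp8 were listed at 0 in both. Of the 5 fibroblast markers that passed the filter, Pdgfra (0.0246 and 4.98) and Col1a2 (0.0948 and 4.75) did so through KO alone, which fixed their direction. Both were past 3-fold. Col1a1 (2.85 and 4.42), Col3a1 (5.18 and 7.46) and Dcn (35.0 and 62.3) passed the filter in both libraries and were higher in KO by less than 2-fold. The fibroblast list summed to 43.2 FPKM in WT and 84.3 in KO. Endothelial markers summed to 13.6 and 16.03. The part of RNA from these other cell types in the differences described below was not tested.

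Differences are given as log2(FPKM + 1), KO minus WT, and genes were called higher or lower from 3-fold on this scale, 1.58 in log2. By this rule 3 of the 35 members were higher in KO, namely Mbd3, Mta3 and Sirt6, which is 8.57%, beside 13.6% of all genes tested. Hdac1 and Hdac7 were lower, which is 5.71%, beside 13.7% of all genes tested. Sirt6 passed the filter of 1 FPKM through KO alone, and Hdac1 and Hdac7 through WT alone, which fixed their direction. The remaining 30 did not pass 3-fold. Among genes that reached 1 FPKM in both libraries, 2 of 30 members (6.67%) were higher beside 5.66% of all genes, and none was lower beside 5.89%, so that the place of the higher members against the background depended on the filter. At 2-fold, 5 members (14.3%) were higher beside 23.1% of all genes, and 5 (14.3%) were lower beside 22.5%. The median difference of the 35 members was 0.01, against 0.03 over all genes tested, and the median size of the difference without its sign was 0.63 against 0.87.

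**Figure D1:**
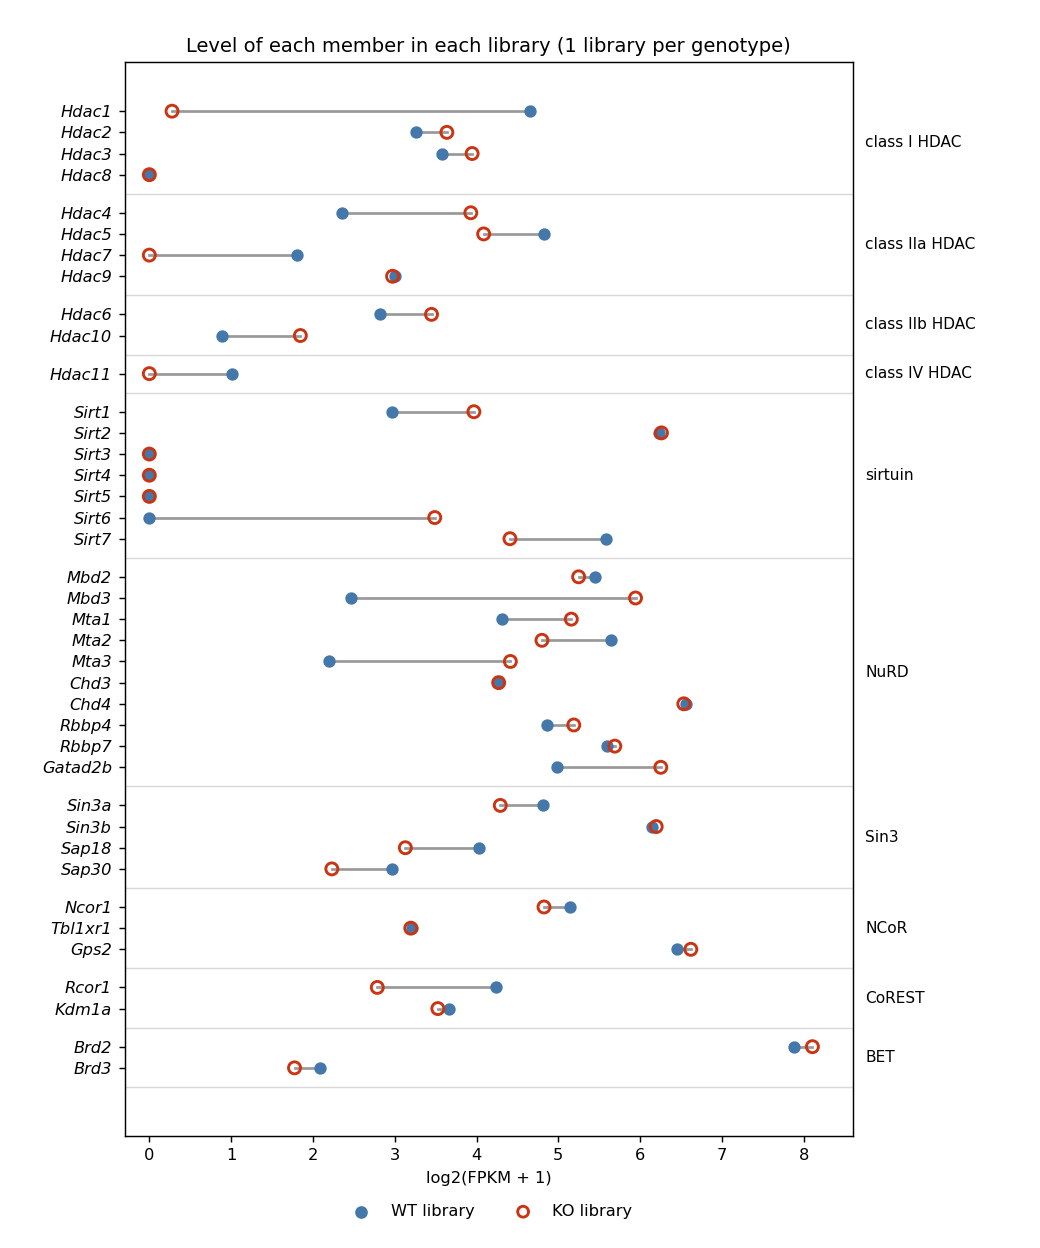
Level of each of the 39 members with a row, on the log2(FPKM + 1) axis, grouped by enzyme class or complex, with a filled blue point for the WT library and an open red point for the KO library joined by a line. Hdac1, Mbd3, Mta3 and Sirt6 have the longest lines, and Chd3, Chd4, Sirt2 and Sin3b lie nearly on top of each other in both libraries.

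Low genes differed more often between these libraries than high genes. Of genes with a mean FPKM under 20, 35.8% of all those tested passed 3-fold in either direction, and 4 of the 19 members tested there did. Of genes with a mean of 20 to 100 FPKM, 9.8% passed, and Mbd3 was the single member of 15 that did. Only Brd2 among the members had a mean above 100 FPKM.

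**Figure D2:**
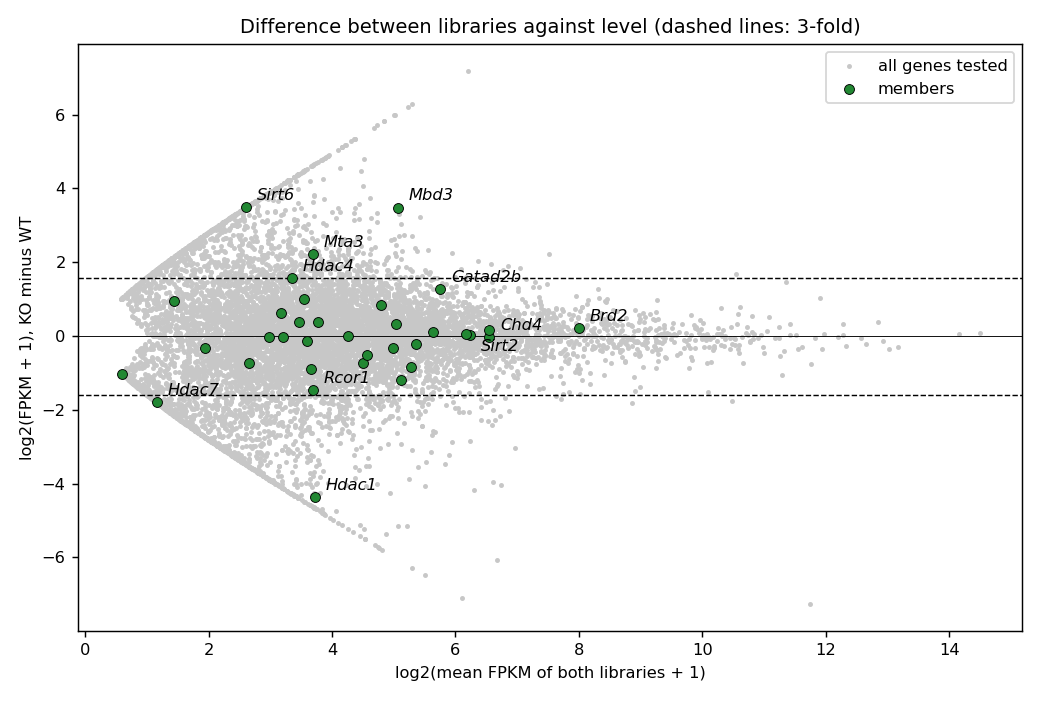
Difference between the libraries on the log2(FPKM + 1) scale, KO minus WT, against log2 of the mean FPKM of both libraries plus 1, for the 10297 genes tested (grey) and the 35 members tested (green), with dashed lines at 3-fold. Mbd3 lies above the line at a level where few grey points do, and the diagonal edges of the grey cloud are genes listed at 0 in a library, among them Sirt6 and Hdac7.

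Class I HDAC are the nuclear catalytic subunits of the corepressor complexes. Hdac1 was 24.1 FPKM in WT and 0.212 in KO, a difference of -4.37. The KO value corresponds to an estimated 3.25 fragments, against 292 in WT, so the size of the fall depends on the pseudocount while the WT level is well covered. In the GENCODE M21 transcripts, 58.7% of the 50-base words of Hdac1 also occur in other genes, and 56.4% occur in Gm10093, so that reads of the Hdac1 coding sequence could be placed at a near-identical copy. Gm10093 has no value among the files used here. Whether reads were placed there was not tested, so the Hdac1 value is uncertain in both libraries. Hdac2, the paralog of Hdac1 that works in the same complexes, shared none of its words with another gene. Hdac2 was 8.58 FPKM in WT and 11.4 in KO, a difference of 0.38. Hdac3, the catalytic subunit of NCoR, was 10.9 and 14.4 FPKM, a difference of 0.37. Neither passed 3-fold. Hdac1 was thus the highest class I HDAC in WT, with 73.7% of the summed FPKM of Hdac1 and Hdac2, and the lowest listed above 0 in KO, with 1.82%. Summed over class I, the level was 43.6 FPKM in WT and 26.1 in KO, and without Hdac1 it was 19.5 and 25.9. Hdac8, which works outside these complexes, was listed at 0 in both libraries.

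Class IIa HDAC shuttle between cytoplasm and nucleus, have little deacetylase activity of their own and bind MEF2 factors. Their members spread in both directions. Hdac4 was 4.10 FPKM in WT and 14.2 in KO, a difference of 1.58 that fell just short of the threshold as deposited and passed it when the libraries were scaled to the same summed FPKM (1.62) or the same upper quartile (1.59). Of its annotated exon bases, 22.4% overlap Gm26720 on the opposite strand, whose reads a count without strand would not separate. Hdac5 was the highest of the class in both libraries, at 27.4 FPKM in WT and 16.0 in KO, a difference of -0.74. Hdac9 was 6.99 and 6.86 FPKM. Hdac7 was 2.48 FPKM in WT, an estimated 58.2 fragments, and was listed at 0 in KO. The summed level of the class was 41.0 FPKM in WT and 37.1 in KO.

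Among the other zinc-dependent enzymes, Hdac6, the cytoplasmic tubulin deacetylase, was 6.06 FPKM in WT and 9.92 in KO, a difference of 0.63. Hdac10, which acts on acetylated polyamines, was 0.846 and 2.596 FPKM, a difference of 0.96. Hdac11, the only class IV enzyme, was 1.022 FPKM in WT, an estimated 7.61 fragments, and was listed at 0 in KO. Of its 50-base words, 21.6% occur in other genes. Over all 11 HDAC the summed level was 92.5 FPKM in WT and 75.7 in KO. Without Hdac1, a sum added after seeing the data, it was 68.4 and 75.5, so that the direction of the total rests on the uncertain Hdac1 value.

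Of the 7 sirtuins, 3 were listed at 0 in both libraries. These were Sirt3, Sirt4 and Sirt5, which encode the mitochondrial sirtuins, and 25.3% of the words of Sirt3 and 22.6% of those of Sirt5 occur in other genes. An exact 0 in this table may be a failed estimate and is not read as absence. Sirt2, a mostly cytoplasmic deacetylase, was the highest sirtuin at 73.9 FPKM in WT and 75.7 in KO, above 90.01% and 90.75% of the genes tested. Sirt7, a nucleolar enzyme tied to ribosomal RNA transcription, was 47.1 FPKM in WT and 20.2 in KO, a difference of -1.18 that passed 2-fold and not 3-fold. Sirt1 was 6.83 and 14.6 FPKM, a difference of 0.999. Sirt6, which removes acetyl groups from histone H3 at chromatin, was listed at 0 in WT and stood at 10.2 FPKM in KO, an estimated 128 fragments. No word of the Sirt6 transcripts occurs in another gene and none of its exon bases overlap one. The summed level of the sirtuins was 128 FPKM in WT and 121 in KO.

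NuRD joins a deacetylase to a chromatin remodelling ATPase, and several of its places can be filled by alternative paralogs. Of its 10 members with a row, 2 (20%) were higher past 3-fold and none was lower, beside 13.6% and 13.7% of all genes tested. Mbd3 was 4.51 FPKM in WT and 60.5 in KO, a difference of 3.48 and a ratio of 13.4. Behind these values stood about 32.8 WT fragments and 557 KO fragments by the depth estimate, and no word or exon base of the gene was shared with another. It moved from above 33.3% of the genes tested to above 88.3%. Mbd2, which binds methylated CpG and is not found in the same NuRD complex as MBD3, was 42.8 FPKM in WT and 37.0 in KO, a difference of -0.21. Mbd3 therefore made up 9.51% of the summed FPKM of the pair in WT and 62.1% in KO, while the sum went from 47.4 to 97.6 FPKM. MBD3, unlike MBD2, has little preference for methylated DNA.

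The MTA proteins are the scaffold on which HDAC1 or HDAC2 sits in NuRD. Mta3 was 3.58 FPKM in WT and 20.3 in KO, a difference of 2.22 and a ratio of 5.67, from about 36.8 and 264 estimated fragments. Mta1 was 18.9 and 34.7 FPKM, a difference of 0.85. Mta2 went the other way by the same amount, at 49.1 FPKM in WT and 26.9 in KO, a difference of -0.85. Neither Mta1 nor Mta2 passed 2-fold. In shares of the summed FPKM of the family, Mta2 held 68.6% in WT and 32.8% in KO, Mta1 26.4% and 42.4%, and Mta3 5.01% and 24.8%. The sum itself was 71.5 FPKM in WT and 81.9 in KO. The order was thus Mta2, Mta1, Mta3 in WT and Mta1, Mta2, Mta3 in KO.

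Among the remaining NuRD places, the CHD and RBBP subunits did not pass 2-fold. Chd4, the main remodelling ATPase, was 93.5 FPKM in WT and 91.7 in KO, and its paralog Chd3 was 18.2 and 18.3, so that Chd4 held 83.7% and 83.4% of the pair. Rbbp7, a histone-binding WD40 protein, was 47.2 and 50.6 FPKM, and its paralog Rbbp4 was 28.2 and 35.5. Of the words of Rbbp4, 32.7% occur in other genes. Gatad2b, which bridges the MBD and CHD subunits, was 30.7 FPKM in WT and 75.2 in KO, a difference of 1.27 that passed 2-fold and not 3-fold. Summed over its 10 members, NuRD stood at 337 FPKM in WT and 451 in KO. Most of this difference lay in Mbd3 (4.51 and 60.5) and Gatad2b. Of the 10, 7 were higher in KO by any amount and 3 were lower.

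**Figure D3:**
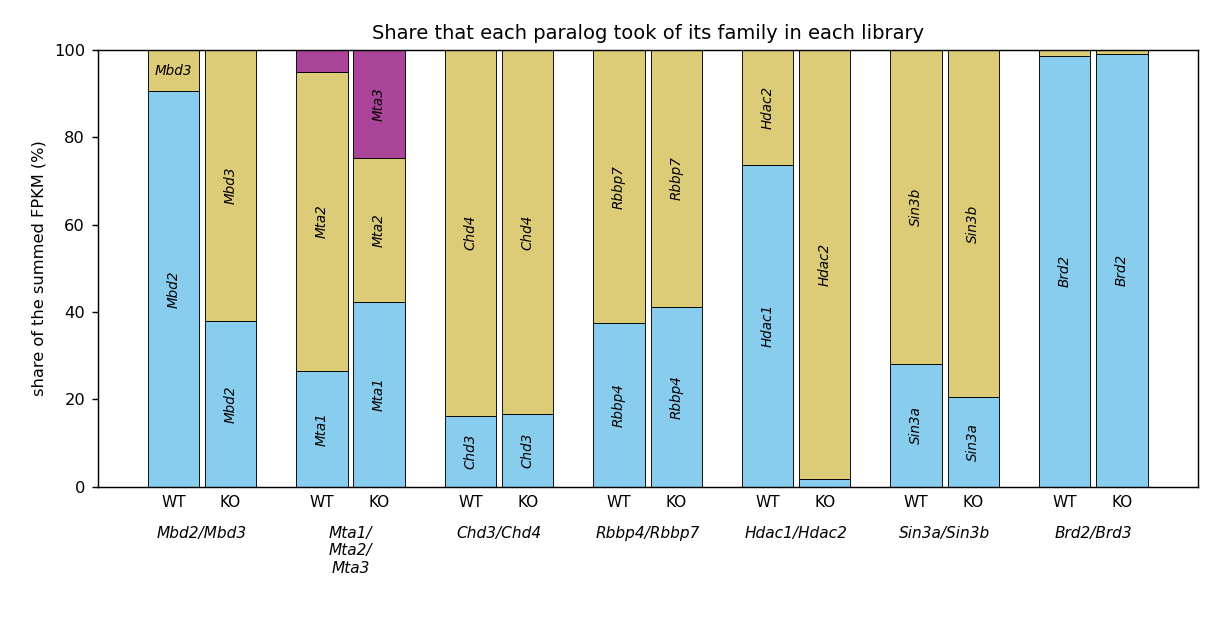
Share of the summed FPKM (%) that each paralog took in the WT and the KO library, for 7 families of paralogs. Shares of RNA level are not the make-up of a complex. The make-up of Mbd2/Mbd3 and Mta1/Mta2/Mta3 differed between the libraries, as did that of Hdac1/Hdac2, which rests on the uncertain Hdac1 value, whereas in Chd3/Chd4, Rbbp4/Rbbp7 and Brd2/Brd3 no share moved by more than 3.81 points.

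HIF-1 binds DNA at a short core, so the proximal promoters of the members were read for the letters ACGTG and GCGTG on both strands. A palindrome CACGTG counts at 2 overlapping starts. RefSeq promoter windows of GRCm38.p6, 250 bases before to 50 bases after a start, were found for 34 members, in 47 windows. A core occurred in 25 of the 47 windows (53.2%) and in 43.8% of all 32851 windows. Hdac1, Hdac3, Hdac10, Mbd2, Mta3 and Chd3 had no entry. Mbd3, Sirt6 and Hdac7 are shown as the members past 3-fold that had an entry, each by its window with the most cores. They are written along the gene, with cores in capitals. The Mbd3 window, on the minus strand at chr10:80399482-80399781, holds 1 core. Sirt6 had 2 windows, and the one at chr10:81627517-81627816, also on the minus strand, holds 2 cores, while the other holds none. Hdac7 had 4 windows, and that at chr15:97831718-97832017, on the minus strand, holds 3 cores, while the others hold none. A match describes the letters in the window and is neither a site nor a cause.
Mbd3: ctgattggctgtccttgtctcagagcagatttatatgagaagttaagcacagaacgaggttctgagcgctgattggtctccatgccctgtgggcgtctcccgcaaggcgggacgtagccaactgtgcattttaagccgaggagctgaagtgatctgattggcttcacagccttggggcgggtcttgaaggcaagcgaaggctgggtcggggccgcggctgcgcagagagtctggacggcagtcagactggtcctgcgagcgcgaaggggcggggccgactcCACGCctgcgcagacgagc
Sirt6: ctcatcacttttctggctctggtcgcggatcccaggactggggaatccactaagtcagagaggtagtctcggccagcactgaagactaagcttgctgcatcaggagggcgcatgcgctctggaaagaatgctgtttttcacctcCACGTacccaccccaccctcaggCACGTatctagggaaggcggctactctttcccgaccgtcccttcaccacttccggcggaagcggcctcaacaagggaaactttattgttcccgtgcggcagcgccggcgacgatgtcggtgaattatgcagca
Hdac7: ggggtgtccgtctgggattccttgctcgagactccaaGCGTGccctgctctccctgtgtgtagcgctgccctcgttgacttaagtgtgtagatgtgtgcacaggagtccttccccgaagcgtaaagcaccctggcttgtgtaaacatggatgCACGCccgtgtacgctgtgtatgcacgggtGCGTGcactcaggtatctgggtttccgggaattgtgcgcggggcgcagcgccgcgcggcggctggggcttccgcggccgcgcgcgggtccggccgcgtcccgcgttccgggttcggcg

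The Sin3 complex places HDAC1 or HDAC2 on a SIN3 scaffold. None of its 4 members passed 2-fold, beside 23.1% of all genes tested higher and 22.5% lower, and their summed level was 119 FPKM in WT and 102 in KO. Sin3b was 69.5 FPKM in WT and 72.3 in KO, and Sin3a was 27.1 and 18.6, a difference of -0.52. Sap18 and Sap30, small subunits that steady the complex, were 15.4 and 7.75 FPKM and 6.85 and 3.69 FPKM, differences of -0.91 and -0.74. Of the words of Sap18, 15.8% occur in other genes, most of them in Sap18b.

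The NCoR complex, through which nuclear receptors repress their targets and which activates HDAC3, had 3 members. None of the 3 passed 2-fold, beside 23.1% of all genes tested higher and 22.5% lower. Ncor1, the scaffold of the complex, was 34.3 FPKM in WT and 27.3 in KO, a difference of -0.32. Gps2, a subunit that restrains inflammatory genes in macrophages, was among the highest members at 86.7 and 97.4 FPKM. Tbl1xr1, which exchanges corepressors for coactivators, was 8.30 and 8.17 FPKM. The summed level was 129 FPKM in WT and 133 in KO.

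CoREST pairs HDAC1 or HDAC2 with the lysine demethylase LSD1, encoded by Kdm1a. Its scaffold Rcor1 was 17.9 FPKM in WT and 5.90 in KO, a ratio of 3.04 and a difference of -1.45 that passed 2-fold and not 3-fold. With a pseudocount of 0.1 it was -1.59 and passed 3-fold. Kdm1a was 11.7 and 10.5 FPKM, a difference of -0.14.

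BET proteins read acetylated histones through tandem bromodomains and bring the elongation machinery to genes. Brd2 was the highest member in both libraries, at 236 FPKM in WT and 275 in KO, above 96.6% and 97.0% of the genes tested, a difference of 0.22. Counting Brd2, 8 members shared over 10% of their words with other genes, the rest being Hdac1, Hdac11, Sirt3, Sirt5, Rbbp4, Rbbp7 and Sap18. Brd3 was 3.24 and 2.42 FPKM, a difference of -0.31, so that Brd2 held 98.6% and 99.1% of the pair.

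A list of 79 further genes was counted beside the members. It held genes of the same or related complexes, other readers, 4 partners of BET proteins and 8 genes of NAD synthesis. Of the 79 genes, 78 had a row and 68 were tested. Of the 68, 7 (10.3%) were higher and 4 (5.88%) were lower past 3-fold, beside 13.6% and 13.7% of all genes tested. The 7 include Nmrk1, a gene of NAD synthesis. The median difference of the 68 was 0.19, against 0.03 over all genes. In NCoR, 1 of 6 tested was higher. This was Tbl1x, a paralog of Tbl1xr1, at 1.19 FPKM in WT and 20.5 in KO, a difference of 3.29. In CoREST, 1 of 8 was higher, namely Zfp217, a zinc finger partner, at 1.66 and 20.8 FPKM. Among genes listed beside NuRD, 1 of 5 was lower, namely Cdk2ap1, at 140 and 28.1 FPKM, a difference of -2.28. In Sin3, 2 of 12 were lower, namely Brms1, at 30.1 and 9.24 FPKM, a difference of -1.60, and Ing2, at 3.29 FPKM in WT and listed at 0 in KO. Ing2 passed the filter through WT alone, which fixed its direction.

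Among other bromodomain readers, 3 of 24 tested (12.5%) were higher and 1 (4.17%) was lower, again beside 13.6% and 13.7% of all genes tested. Brd7, a subunit of the PBAF remodelling complex, was 1.22 FPKM in WT and 16.0 in KO, a difference of 2.94. Brd9, a subunit of the non-canonical BAF complex, went the opposite way, at 24.4 and 0.623 FPKM, a difference of -3.97. Brd8, a subunit of the TIP60 acetyltransferase complex, was 1.19 and 6.06 FPKM, and Zmynd11, a reader of methylated histone variants, was 5.46 and 18.6. In the MiDAC complex, Dnttip1 was listed at 0 in WT and stood at 3.84 FPKM in KO, and Trerf1 was 38.9 and 20.1 FPKM. Brd9 passed the filter through WT alone and Dnttip1 through KO alone, which fixed their direction.

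**Figure D4:**
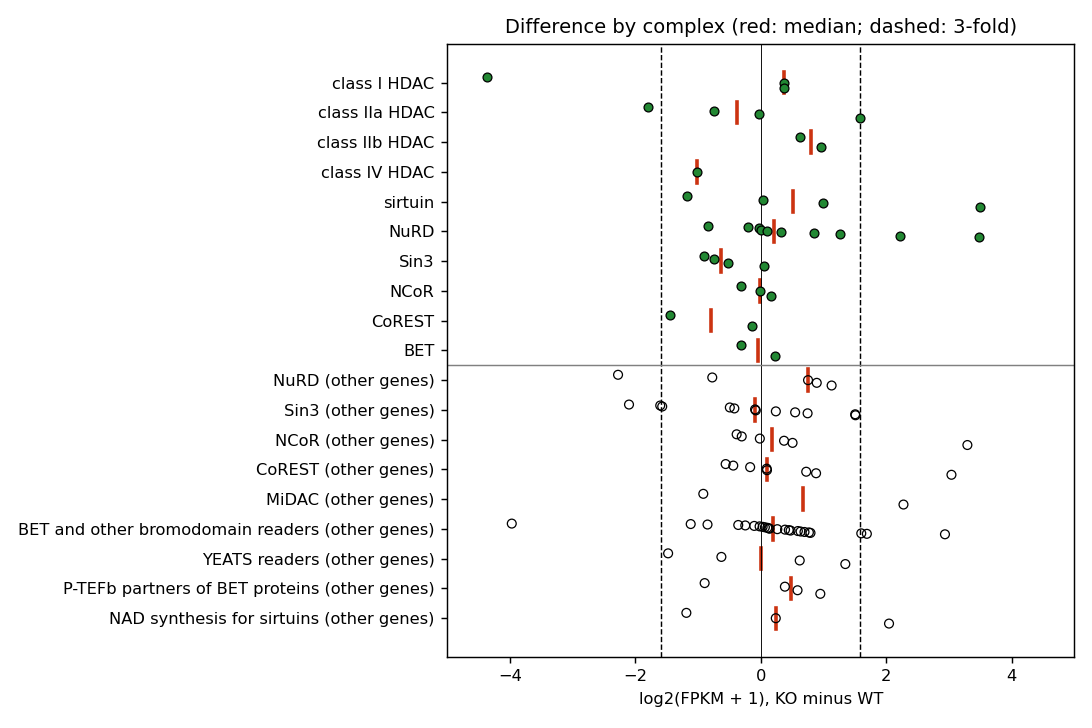
Difference on the log2(FPKM + 1) scale, KO minus WT, for each gene tested. Members are filled points above the horizontal line, and genes of the further list of 79 are open points below it. Red bars are group medians and dashed lines 3-fold. Among members, Mbd3, Mta3 and Sirt6 lie beyond the right line, Hdac1 and Hdac7 beyond the left.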

How the data were processed

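RNA of sorted ATM was measured in 1 WT and 1 KO library. The authors deposited a table of FPKM values per gene and library, made with CASAVA 1.8.2, TopHat2 2.0.9 and Cufflinks 2.2.1 on mm9, as named in the submitters' processing notes. The annotation and any filter are not given in the sources used here. The mutant column was read as KO. Of 20749 rows, 401 exact repeats were dropped and 18 rows repeating an identifier were summed, and 98.5% of the 20330 identifiers had a symbol in GENCODE M21.

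The WT value of log2(FPKM + 1) was subtracted from the KO value for every gene that reached 1 FPKM in WT, KO or both, and calls were made from 3-fold. The pseudocount of 1 understates the change of low genes. No count model was used and no p-value was computed. Fragment numbers are FPKM times length times the estimated depth, with the median length of a gene's transcripts in GENCODE M21 (GRCm38), which also served for 50-base words shared between genes and for exon overlap. Promoter windows are from RefSeq on GRCm38.p6, not the build of the files. All members were named, together with further genes past 3-fold with an FPKM of at least 5 in a library and a few set beside them after their values were seen. The members and gene lists were chosen with earlier results of these data known. Alternatives were a pseudocount of 0.1 or 5, other filters, 2 other scalings, another treatment of repeated identifiers and a 2-fold threshold. Python 3.11.15, pandas 2.3.3, NumPy 2.4.6 and matplotlib 3.10.9 were used. The fold rule was also run on simulated pairs without noise, which checks the code and not the error rate in these data.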

Additional observations from a re-analysis of the deposited data

How the results depend on the processing

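The count of members past 3-fold depended on how low values were treated. Members lower in KO numbered 2, and were 4 with a pseudocount of 0.1, 1 with a pseudocount of 5, 0 where both libraries had to reach 1 FPKM, 1 with a mean FPKM of at least 5 and 5 at 2-fold. Members higher numbered 3, were 5 at 2-fold and lay between 2 and 4 otherwise. The share of all genes moved as well, from 3.76% lower with a pseudocount of 5 to 18.0% with 0.1, and from 3.25% to 18.5% higher. Of the further genes, 7 were higher, which became 3 with a pseudocount of 5 and 11 at 2-fold, and 4 were lower, which became 7 with a pseudocount of 0.1, 2 with a pseudocount of 5, 2 where both libraries had to reach 1 FPKM and 8 at 2-fold. Hdac1 was -6.28 with a pseudocount of 0.1 and -2.48 with 5, Mbd3 was 2.79 and Mta3 1.56 with 5, the latter just under the threshold. Of the 32 members above 0 in both libraries, Chd4, Hdac9 and Tbl1xr1, which differed by -0.03, -0.02 and -0.02, turned to 0.01, 0.01 and 0.02 when scaled to the same summed FPKM, and the others kept their sign under these alternatives. The median difference of the members stayed between 0 and 0.05, and scaling to the same summed FPKM moved the median of all genes from 0.03 to 0.07. No paired analysis was possible because there was just 1 library per genotype. The size of the spread between animals is not known, and low values rest on few fragments, as that of Hdac1 does in KO.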

Other observations

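Sirtuins consume NAD, and genes that make it were read beside them. Of 8 such genes, 3 were tested. Nampt, the rate-limiting enzyme of the salvage route, was 16.8 FPKM in WT and 19.99 in KO, a difference of 0.24 on the log2(FPKM + 1) scale. Nmrk1, a nicotinamide riboside kinase, was 5.14 and 24.3 FPKM, a difference of 2.04 that passed 3-fold. Nmnat3 was 1.28 FPKM in WT and listed at 0 in KO, and Nmnat2, Naprt and Qprt were listed at 0 in both.

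BET proteins recruit P-TEFb, the kinase that releases paused polymerase. None of its 4 genes passed 3-fold, beside 13.6% of all genes tested higher and 13.7% lower. The kinase Cdk9 was 14.1 FPKM in WT and 21.7 in KO, its cyclin Ccnt1 was 43.6 and 23.0, the alternative cyclin Ccnt2 was 1.98 and 4.75, and the inhibitor Hexim1 was 32.7 and 42.9. Among the YEATS readers, which also bind acylated histones, Yeats2 was 3.34 and 10.05 FPKM and Mllt3 was 1.90 and 0.0423, and neither passed 3-fold on the log2(FPKM + 1) scale.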
